A study of Mus musculus with 7 samples.

Results

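The neural tube is divided along its dorsoventral axis into progenitor domains, each marked by its own set of transcription factors, and 10 genes of this kind were followed here in tissue outside the neural tube. The genes were given by name, in a list chosen with earlier results of these data known. Every probe carrying 1 of their array symbols was taken, whatever its signal: 12 probes for 10 genes, of 41174 probes and 21475 named genes on the array. By their textbook positions, *Nkx2-2*, *Nkx2-9*, *Nkx6-1* and *Olig2* were set as ventral (4 genes), *Dbx1* as intermediate (1 gene), and *Lbx1*, *Skor1* (listed on the array under its older symbol *Lbxcor1*), *Pou4f1* and *Lmx1a* as dorsal (4 genes). *Foxb1* (1 gene) was set in no domain.

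RNA was measured on 1-colour Agilent mouse whole genome arrays, 1 array a pool, in the microdissected posterior second heart field (pSHF), the mesoderm behind the heart that supplies the atrial septum. Embryos were taken at E9.5 from intercrosses of superovulated *Shh*+/- females with *Shh*+/- males on a mixed background (labelled C56B/6 and CD-1), and after genotyping the tissues were pooled into 4 *Shh*-/- pools and 3 *Shh*+/+ pools. *Shh*-/- embryos carry the null allele in every tissue, and heterozygotes were not profiled. The foregut stayed attached to the dissected tissue, whereas the heart and, by the study's methods, the neural tube were taken away. Pools 1, 3 and 4 each had a *Shh*-/- and a *Shh*+/+ array on the same slide. *Shh*-/- pool 2, with no other of these arrays on its slide, was noted by the submitters as having perhaps leaked during hybridization.

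Sonic hedgehog made by the notochord and floor plate patterns the ventral neural tube, where its signal is needed for *Nkx2-2*, *Nkx2-9*, *Olig2* and *Nkx6-1*. BMP and Wnt signals from the roof plate help to pattern the dorsal neural tube. Gli proteins carry the signal to the genome, and neighbouring domain factors repress each other, which sharpens the borders. Several of these factors also have places outside the neural tube: *Nkx6-1* in the pancreatic bud, *Nkx2-2* in the gut and pancreas, *Lbx1* in migrating limb and tongue muscle precursors, and *Pou4f1* in sensory ganglia.

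What the arrays read is given by the probes of 60 bases, of which the first 30 are shown in lower case, from the 5′ end, with no part marked. They are shown for the genes on which the results turn, *Skor1* at chr9:62986003-62986062, *Nkx6-1* at chr5:102088323-102088382 and *Dbx1* at chr7:56887073-56887132, all on the minus strand of mm9, in which the scanner files place the probes, and for both probes of *Olig2* and of *Pou4f1*, of which 1 was well above background on all 7 arrays and the other was not.
Skor1: gagatggcgaccatcttgagcctatttggg
Nkx6-1: cccccagtatcctggctgctcgccgggcct
Dbx1: cagcttacctgagatgtgctctactgtgta
Olig2, first probe: aagaacaacatcaaaaagttgctgtgaata
Olig2, other probe: ctacatcctcatgctcaccaactcgctgga
Pou4f1, first probe: gtacaaccccggccctcgtctgagaagatc
Pou4f1, other probe: tagttgggactatatcctctgaagtcatcc
An annotation of mm9 was not used here, so the exon or untranslated region under each probe is not given.

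The stretches of 250 bases before the start of *Nkx6-1* and of *Skor1*, the 2 genes with the clearest differences between genotypes, are shown from RefSeq (GRCm38.p6), with each CG dinucleotide in capitals. The *Nkx6-1* stretch lies at chr5:101664712-101664961, and that of *Skor1*, for the most upstream of its 3 starts in the table, at chr9:63148962-63149211, both on the minus strand and read towards the gene.
Nkx6-1: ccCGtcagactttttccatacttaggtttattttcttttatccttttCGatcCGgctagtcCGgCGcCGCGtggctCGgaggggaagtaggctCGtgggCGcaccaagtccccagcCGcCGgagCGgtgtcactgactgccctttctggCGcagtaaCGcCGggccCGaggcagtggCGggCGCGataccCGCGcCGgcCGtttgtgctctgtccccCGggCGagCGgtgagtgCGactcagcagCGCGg
Skor1: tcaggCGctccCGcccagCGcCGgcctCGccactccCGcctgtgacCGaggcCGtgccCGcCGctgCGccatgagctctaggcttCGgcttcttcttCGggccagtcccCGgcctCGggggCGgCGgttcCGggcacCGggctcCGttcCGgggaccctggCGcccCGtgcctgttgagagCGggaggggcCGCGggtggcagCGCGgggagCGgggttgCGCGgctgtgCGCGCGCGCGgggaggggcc
Over 300 bases, from 250 before to 50 after the start, the *Nkx6-1* promoter held 40 CG dinucleotides. The *Skor1* promoter at the start shown held 46, and those at its other starts held 17 and 15. The median over 32851 mouse promoters was 7. The table held 10 promoters of 8 of the 10 genes, none of *Lbx1* or *Foxb1*, and these ranged from 12 CG dinucleotides in *Lmx1a* to 57 in *Pou4f1*. The Gli word GACCACCCA, searched on both strands, stood in 0 of the 10 promoters and in 0.253% of all promoters. Its shorter core CCACCCA, which the longer word contains, stood in 2 of them, *Olig2* and *Nkx2-9*, and in 9.3% of all promoters. These matches describe letters in a window and do not place a binding site.

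Signals are given as normalized log2 values, in which a difference of 1 is a doubling, and a level is compared between pools for 1 probe but not between probes. A probe was called well above background on an array by the Feature Extraction flag. It was tested only when this held on every array of at least 1 genotype. Of the 10 genes, 5 passed by 1 probe each (*Nkx6-1*, *Olig2*, *Lbx1*, *Skor1* and *Pou4f1*), each on all 7 arrays. The other 5 were well above background on 1 to 3 of the 7 arrays. Since the pools are bulk tissue, fewer cells of a type and less RNA per cell cannot be told apart.

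Among the 5 genes tested, *Skor1* was lower in the *Shh*-/- pools at an adjusted p under 0.05 by limma, and no gene was higher. The count of 1 of 5 stands beside 0.536% of the 23117 probes tested that were called in either direction, 0.281% lower and 0.255% higher. At an unadjusted p under 0.05 the count was 2, *Skor1* and *Nkx6-1*, against 7.89% of probes in either direction. Of the 5, 4 had a fitted change below 0, beside 43.5% of all probes. The median change over the 10 genes, each by its brightest probe and with dim probes as measured, was -0.38, against 0.02 over the probes tested. The ventral genes had a median of -0.22, with 2 of the 4 at or near background, and without *Shh*+/+ pool 3 it was 0.01. The dorsal genes had a median of -0.17 and ran from -2.42 to 0.62. Among the probes tested, groups that did not overlap made up 3.38% with *Shh*-/- lower and 4.96% with *Shh*-/- higher. Of the 5 genes tested 2 were of the first kind, *Nkx6-1* and *Skor1*, and 0 of the other. Since the 10 genes were chosen with earlier results of these data known, these counts beside the shares of all probes are a description.

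**Figure D1:**
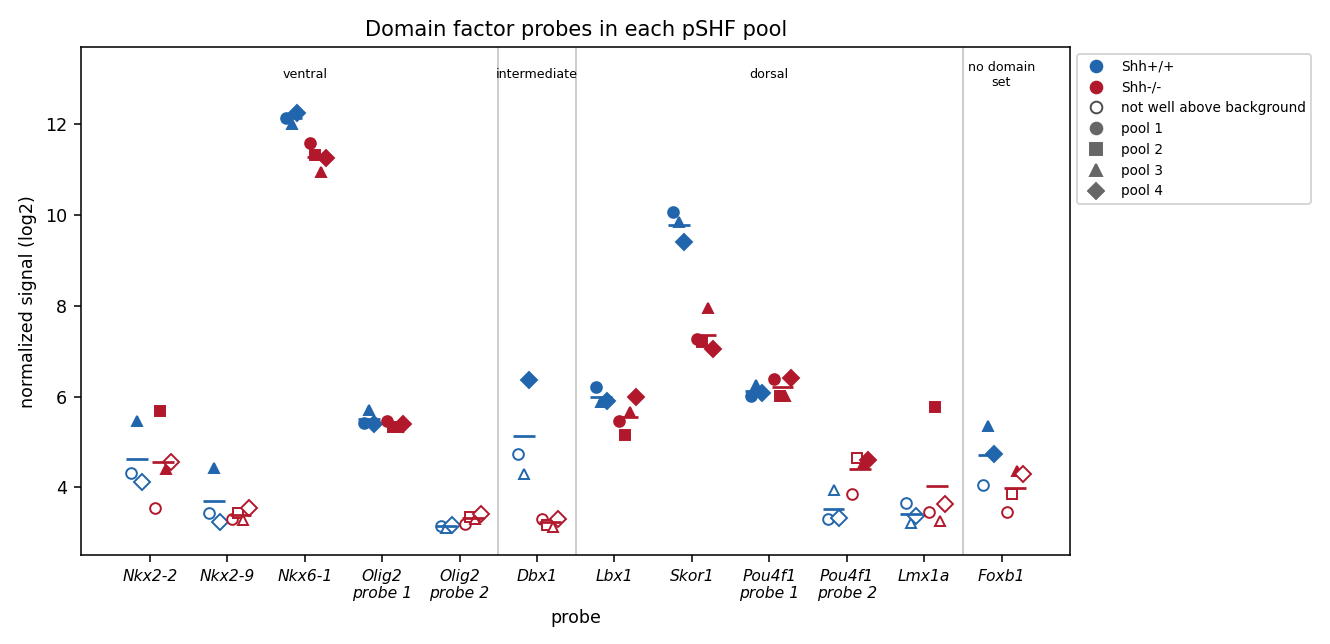
Normalized log2 signal (y axis) of each probe of the 10 genes (x axis, grouped by domain) in 3 *Shh*+/+ pools (blue) and 4 *Shh*-/- pools (red). Shapes mark the pool number, hollow points are not well above background, and short lines are group means. The groups are apart for *Nkx6-1*, *Skor1* and, at low signal, *Dbx1* and the other *Olig2* probe. Levels compare between pools of 1 probe only.

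*Nkx6-1*, a ventral gene, came closest to the threshold after *Skor1*. The gene, a homeodomain factor of the ventral progenitors, read 12.14, 12.01 and 12.25 in *Shh*+/+ pools 1, 3 and 4. In *Shh*-/- pools 1 to 4 it read 11.60, 11.32, 10.95 and 11.27. Every *Shh*-/- pool lay under every *Shh*+/+ pool, with the closest approach in *Shh*-/- pool 1. The means were 12.13 ± 0.12 (SD, n = 3) and 11.28 ± 0.27 (SD, n = 4), and the fitted change was -0.85 (SE 0.16, 95% interval -1.21 to -0.49), or 55.5% of the *Shh*+/+ level. Its adjusted p of 0.0628 by limma missed the threshold. The exact permutation test of 4 against 3 pools gave 0.0286, the smallest p this design allows. On the 3 shared slides, the *Shh*-/- array was lower by the differences -0.54, -1.06 and -0.98.

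The call for *Nkx6-1* depended on the processing. The adjusted p was 0.0474 with quantile normalization, 0.0458 without background correction, 0.0474 with normexp on the local background and 0.03 with a variance trend. It was 0.0273 by SAM, 0.0459 with the slide as a random block and 0.0396 without *Shh*-/- pool 1 (change -0.95), all past the threshold. The other 13 alternatives missed it. With the slide as a fixed block, the pairing used on the 3 shared slides, the adjusted p was 0.0933 at a change of -0.86. Without 1 of the other 6 arrays it ran from 0.122 to 0.27, the highest without *Shh*+/+ pool 1. It was 0.131 without the filter on dim probes, 0.934 in the deposited values and 0.258 after these were set to 1 median. Over the 20 alternatives the change ran from -1.49 to -0.74, always lower.

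*Olig2*, the bHLH factor of motor neuron progenitors, showed no such gap. Its first probe (chr16:91228470-91228529, plus strand) read 5.41, 5.71 and 5.40 in the *Shh*+/+ pools and 5.47, 5.32, 5.32 and 5.39 in the *Shh*-/- pools. The groups overlapped, and the fitted change was -0.13 (SE 0.12, 95% interval -0.40 to 0.14; limma adjusted p = 1). The signal of this probe before correction was low, at 57.4 to 82.5, against 1960 to 5400 for *Nkx6-1*. The sizes of the changes of these genes are therefore not compared. The other *Olig2* probe (chr16:91227115-91227174) was well above background on none of the 7 arrays, at 3.10 to 3.17 in *Shh*+/+ and 3.20 to 3.42 in *Shh*-/- pools. These groups did not overlap either, in the opposite direction and by small steps, as in 3.89% of the named probes too dim to test.

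*Nkx2-2* and *Nkx2-9*, homeodomain factors of the cells next to the floor plate, were at or near background. *Nkx2-2* (chr2:147008888-147008912, minus strand, a span shorter than the probe) was well above background in *Shh*+/+ pool 3 at 5.45 and in *Shh*-/- pools 2 and 3 at 5.69 and 4.41. The readings not well above background were 4.31 and 4.11 in *Shh*+/+ and 3.55 and 4.55 in *Shh*-/- pools. The highest value of all was that of *Shh*-/- pool 2, the array noted for a possible leak, and the groups overlapped. *Nkx2-9* (chr12:57712385-57712443, minus strand) was well above background in *Shh*+/+ pool 3 alone, at 4.43, with 3.44 and 3.24 in the others and 3.27 to 3.55 in the *Shh*-/- pools. No fold is given for either gene.

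*Dbx1*, a homeodomain factor of the progenitors at the middle of the neural tube and the 1 intermediate gene, read 4.73, 4.29 and 6.36 in *Shh*+/+ pools 1, 3 and 4. In *Shh*-/- pools 1 to 4 it read 3.31, 3.17, 3.12 and 3.30. The groups did not overlap, as in 2.55% of named probes too dim to test, and the exact permutation p was 0.0286. Only *Shh*+/+ pool 4 was well above background, so the gene was not tested across the array. No fold is given, since 2 of the 3 *Shh*+/+ readings were not well above background either. The difference of means moved from -1.90 to -0.60 with quantile normalization and to -2.70 with scaling to the 75th percentile, and without *Shh*+/+ pool 4 it was -1.29.

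**Figure D2:**
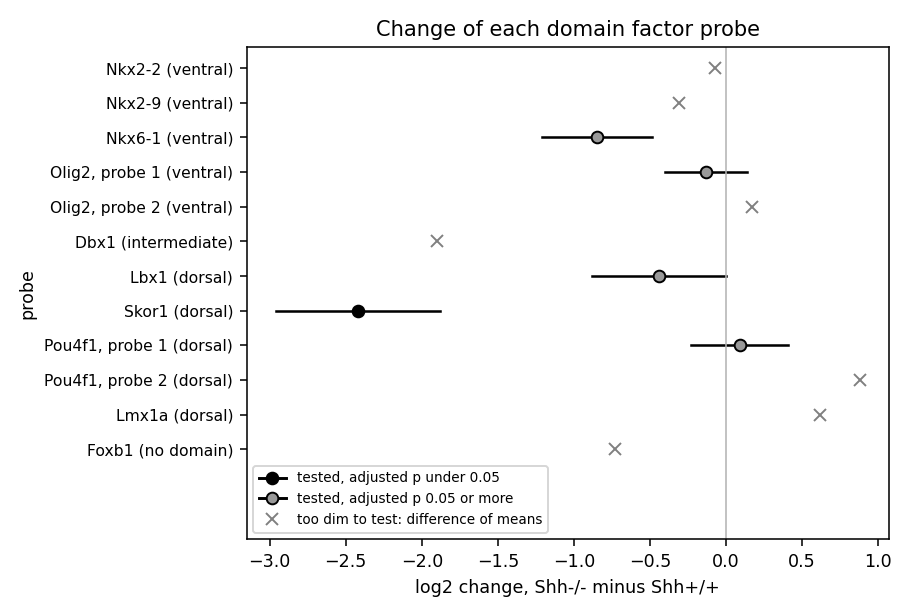
Log2 change (x axis, *Shh*-/- minus *Shh*+/+) of each probe (y axis, with its domain). Circles with lines are fitted changes with 95% intervals for the 5 probes tested, filled black where the adjusted p was under 0.05, and crosses are differences of means of probes too dim to test. *Skor1* at -2.42 is the one black circle, and *Nkx6-1* at -0.85 is the other interval that lies wholly below 0.

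*Skor1* had the largest change of the dorsal genes. The protein is a transcriptional corepressor that binds Lbx1 in dorsal interneurons of the spinal cord. It read 10.08, 9.86 and 9.41 in *Shh*+/+ pools 1, 3 and 4, and 7.26, 7.20, 7.96 and 7.04 in *Shh*-/- pools 1 to 4. All 4 *Shh*-/- pools lay well under all 3 *Shh*+/+ pools. The means were 9.79 ± 0.34 (SD, n = 3) and 7.36 ± 0.41 (SD, n = 4), and the fitted change was -2.42 (SE 0.24, 95% interval -2.96 to -1.88; limma adjusted p = 0.00856), 5.36-fold lower. The differences on the 3 shared slides were -2.83, -1.90 and -2.37, and the exact permutation p was 0.0286. Without *Shh*+/+ pool 1 the adjusted p was 0.053 at a change of -2.27. It was 0.934 in the deposited log2 values, whose arrays are not at a common level, and 0.117 after these were set to 1 median.

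*Lbx1*, the homeodomain factor whose product Skor1 binds, gave a smaller difference. Its probe (chr19:45307928-45307987, minus strand) read 6.22, 5.87 and 5.90 in *Shh*+/+ pools and 5.45, 5.15, 5.65 and 5.98 in *Shh*-/- pools. *Shh*-/- pool 4 lay between the *Shh*+/+ values and the other 3 lay under them. The fitted change was -0.44 (SE 0.19, 95% interval -0.88 to 0.00), and the adjusted p of 0.637 by limma missed the threshold. The intervals of *Lbx1* and *Skor1* did not overlap, and the difference between the genes was not itself tested. Signals before correction were 62 to 97.7 for *Lbx1* and 137 to 1030 for *Skor1*, which limits this comparison.

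*Pou4f1*, a POU factor of dorsal interneurons and sensory neurons, showed no difference beyond the spread between pools on its first probe (chr14:104865021-104865080, minus strand). It read 6.02, 6.25 and 6.07 in *Shh*+/+ pools and 6.39, 6.02, 6.02 and 6.40 in *Shh*-/- pools. The groups overlapped, with a change of 0.09 (SE 0.14, 95% interval -0.23 to 0.41; limma adjusted p = 1). The other probe (chr14:104861950-104862009) was well above background in 2 of the *Shh*-/- pools and in 0 of the *Shh*+/+ pools. It read 3.29, 3.95 and 3.32 in *Shh*+/+ and 3.85, 4.64, 4.52 and 4.61 in *Shh*-/- pools, and *Shh*-/- pool 1 lay within the *Shh*+/+ range. No fold is given for this probe.

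*Lmx1a*, a roof plate factor (chr1:169777888-169777947, plus strand), was well above background on 1 array, that of *Shh*-/- pool 2 at 5.77. The other *Shh*-/- pools read 3.46, 3.25 and 3.63 and the *Shh*+/+ pools 3.65, 3.22 and 3.36. The one high reading came from the array noted for a possible leak, and its part in the value was not tested. *Foxb1*, a forkhead gene of the developing brain and spinal cord set in no domain (chr9:69605802-69605861, minus strand), read 4.06, 5.35 and 4.73 in *Shh*+/+ pools and 3.45, 3.85, 4.36 and 4.29 in *Shh*-/- pools. It was well above background in 2 *Shh*+/+ pools and 1 *Shh*-/- pool. On each of the 3 shared slides the *Shh*-/- array was the lower, but the groups overlapped and no fold is given.

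**Figure D3:**
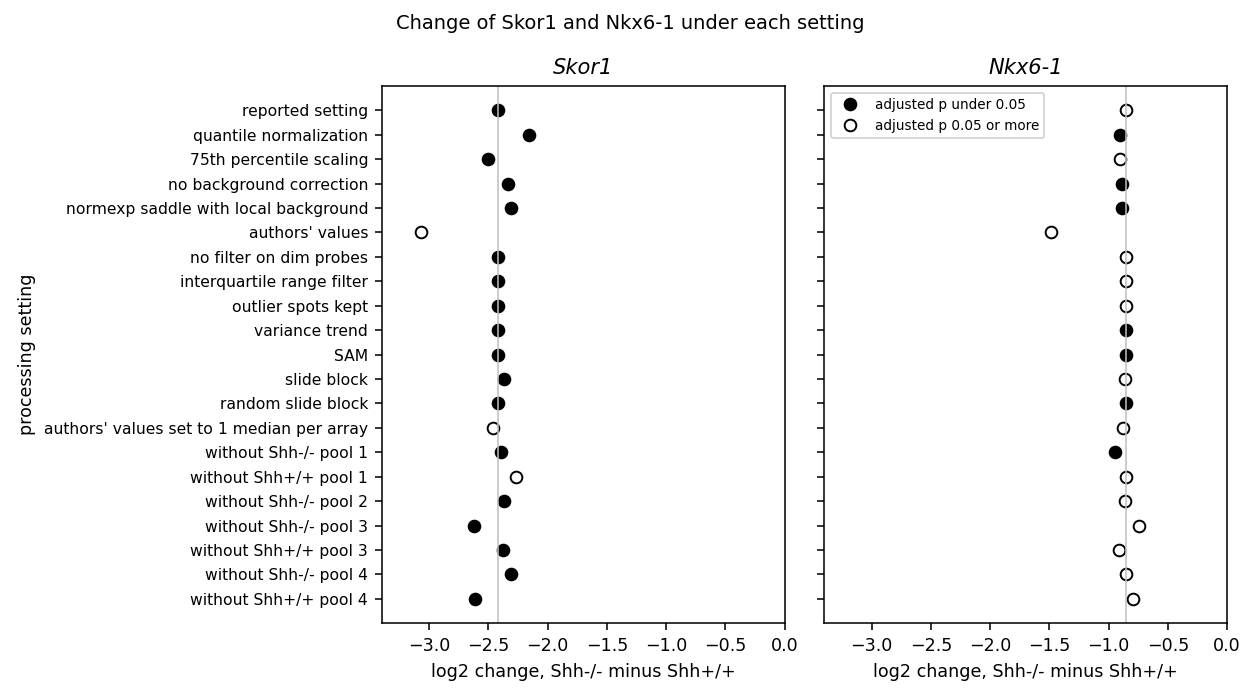
Log2 change (x axis, *Shh*-/- minus *Shh*+/+) of *Skor1* (left) and *Nkx6-1* (right) under the reported setting and 20 alternatives (y axis). Filled points have an adjusted p under 0.05 and the grey line is the reported change. *Skor1* loses its call in the deposited values, with or without 1 median per array, and without *Shh*+/+ pool 1, and *Nkx6-1* gains one under 7 alternatives.

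Genes whose pattern was most like that of *Skor1* were sought by the root mean square difference between their signals, each centred on its mean over the 7 arrays, among all probes tested. The closest were *Pax9* at 0.32, *Hhip* at 0.34, *Foxf2* at 0.38, *Crhbp* at 0.46 and *Ankrd22* at 0.48, against a median of 1.27 over the probes. *Hhip* encodes a Hedgehog-binding membrane protein, *Pax9* a paired-box factor of the pharyngeal pouches, and *Foxf2* a forkhead factor of the gut and SHF mesenchyme. Their fitted changes ran from -1.54 for *Ankrd22* to -2.62 for *Hhip*. As they were picked for likeness to a gene that differed by genotype, these values are a description, and none of the 5 is a neural domain factor.

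The other neural tube domain genes gave the setting for these values. Of 41 such genes listed, 39 had a probe, 18 were tested, and 12 of the 39 were well above background on no array. Of the 18, 8 were lower and 10 higher in *Shh*-/- pools. By limma 1 was called lower and 1 higher, both dorsal, and the median over the 39 was -0.03. *Zic1*, a zinc finger gene of the dorsal neural tube and somites, read 9.08, 8.11 and 8.76 in *Shh*+/+ pools and 6.32, 6.43, 6.63 and 7.55 in *Shh*-/- pools (change -1.92, SE 0.32; limma adjusted p = 0.0447). *Lhx9*, a LIM homeodomain gene, read 9.66, 9.87 and 9.93 against 10.48 to 11.07 (change 0.98, SE 0.16; limma adjusted p = 0.0447). The groups did not overlap for either gene, but with the slide as a fixed block the count of calls in the list was 0 (7 at an unadjusted p under 0.05 by limma). It was 2 with the slide as a random block, and without any 1 of the 7 arrays it was 0 or 1. *Ptf1a*, a bHLH gene of both the dorsal neural tube and the pancreas, had the largest change among those not called, at 1.71 (SE 0.40; limma adjusted p = 0.132).

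**Figure D4:**
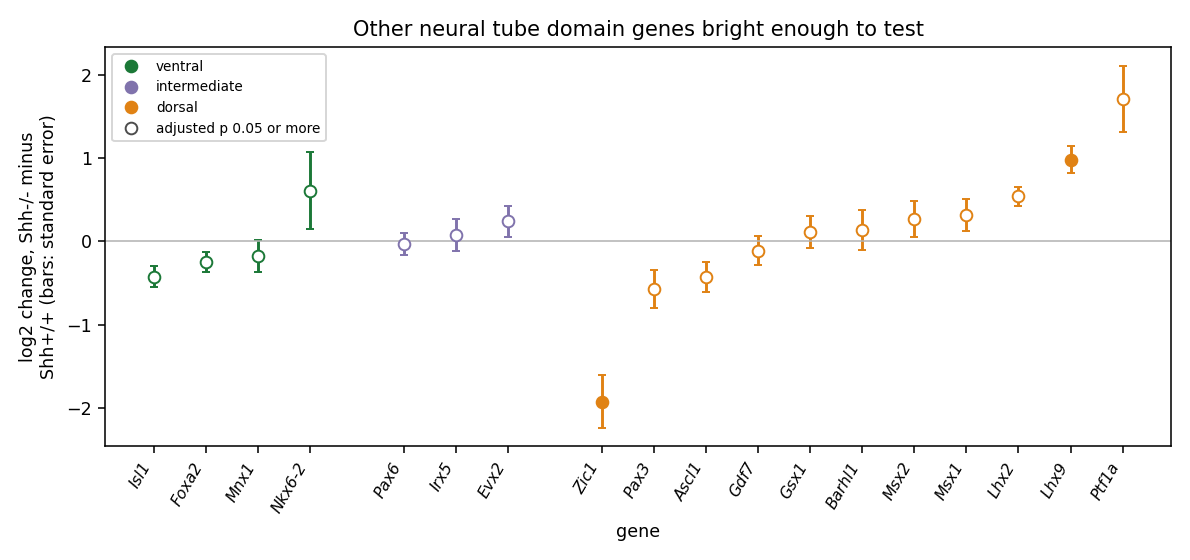
Fitted log2 change (y axis, *Shh*-/- minus *Shh*+/+, bars are standard errors, n = 4 and 3 pools) of the 18 other neural tube domain genes bright enough to test (x axis), coloured by domain. Filled points had an adjusted p under 0.05: *Zic1* at -1.92 and *Lhx9* at 0.98.

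By domain, 4 of 9 ventral genes on the array were tested (3 lower, 1 higher), 3 of 7 intermediate genes (1 lower, 2 higher) and 11 of 23 dorsal genes (4 lower, 7 higher). Their medians, dim genes included, were -0.17, 0.06 and -0.02. Several of those tested also belong to tissue that the dissection kept or could have kept, such as *Foxa2* to the foregut, *Isl1* to the SHF, *Mnx1* and *Ptf1a* to the pancreatic bud and *Pax3* to muscle precursors. *Olig1*, *Foxn4*, *En1*, *Evx1*, *Atoh1* and *Wnt3a*, all markers of neural tube domains, were among those well above background on no array.

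Marker lists were read for tissues that the pools could hold. Some of their genes mark more than 1 tissue, as *Isl1* does in the pSHF and ganglion lists. Signal from a list therefore does not show by itself that a tissue was present. All 10 pSHF markers and all 8 foregut markers were well above background on every array. Of the neural progenitor markers, 6 of 7 with a probe were well above background on all 7 arrays and were tested. The other, *Sox1*, was well above background on 1 of 7 arrays. The mean level of this list was 8.56 to 8.88 in *Shh*+/+ and 8.08 to 8.44 in *Shh*-/- pools. Of its 6 tested genes 3 were lower and 3 higher, and 0 were called by limma, with 2 at an unadjusted p under 0.05. The largest change was that of *Hes5*, a Notch target, at -2.66 (adjusted p = 0.104), followed by *Sox2* at -0.40 and *Sox21* at -0.22. The list's median change was 0.02, and without *Hes5* its mean level was 8.52 to 8.67 in *Shh*+/+ and 8.41 to 8.69 in *Shh*-/- pools, which overlapped. No other list was read without its largest change, so this overlap does not set the neural progenitor list apart from the pSHF and foregut lists.

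**Figure D5:**
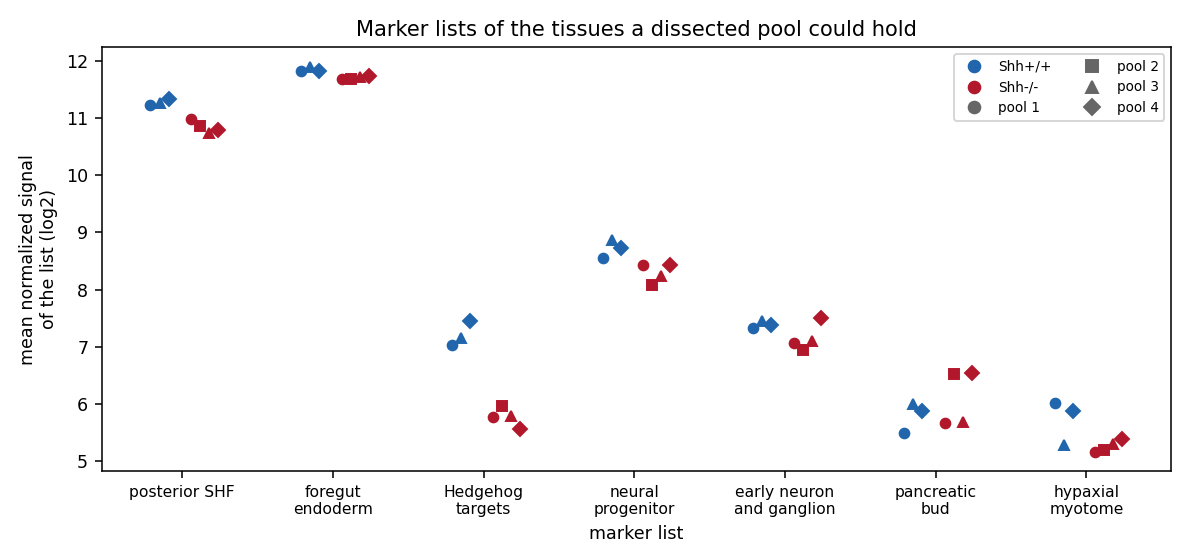
Mean normalized log2 signal (y axis) of each marker list (x axis) in each pool, with 3 *Shh*+/+ pools in blue, 4 *Shh*-/- pools in red and shapes for the pool number. The means of the Hedgehog target, pSHF, foregut and neural progenitor lists lay lower in all *Shh*-/- pools. A list mean can be moved by 1 gene. Of the genes tested, 4 of 10 pSHF, 2 of 8 foregut and 3 of 6 neural progenitor genes had a fitted change above 0. The neural progenitor list overlapped once *Hes5* was left out, a step taken for no other list. The other 3 lists overlapped.

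Early neuron and ganglion markers, among which *Pou4f1* could be read, lay at 7.32 to 7.45 in *Shh*+/+ and 6.94 to 7.51 in *Shh*-/- pools. Of 11 tested, 8 were lower and 3 higher, and limma called 0, with 3 at an unadjusted p under 0.05. *Neurog2*, a proneural bHLH gene, had a change of -1.42 (SE 0.92) that missed the threshold (limma adjusted p = 0.931). It read 7.01, 7.02 and 6.55 in *Shh*+/+ pools and 8.37, 3.63, 4.75 and 5.00 in *Shh*-/- pools, so *Shh*-/- pool 1 was the highest of all. Pancreatic bud markers, the tissue outside the neural tube best known for *Nkx6-1*, lay at 5.49 to 5.99 and 5.67 to 6.54, with 5 tested, 2 lower and 3 higher. Limma called 0 of them and 2 had an unadjusted p under 0.05; after *Ptf1a*, the largest changes were *Neurog3* at -0.33 and *Ins2* at 0.18. The hypaxial muscle markers that go with *Lbx1* lay at 5.28 to 6.01 and 5.15 to 5.38, with 3 tested, 2 lower and 1 higher. Limma called 0 and 2 had an unadjusted p under 0.05. The changes were -1.97 for *Myog*, -0.57 for *Pax3* and 0.29 for *Met*, none past the threshold, while *Myf5* and *Myod1* were well above background on no array. The part of these tissues in the values of the 10 genes was not tested.

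The foregut list lay at 11.82 to 11.91 in *Shh*+/+ and 11.69 to 11.73 in *Shh*-/- pools. Of its 8 genes 6 were lower, and *Nkx2-1*, of lung and thyroid, was called (-0.88, limma adjusted p = 0.0447), followed by *Krt8* at 0.40 and *Foxa2* at -0.25. The pSHF list lay at 11.24 to 11.34 and 10.74 to 10.98, with 6 of 10 lower and *Foxf2* called (-2.42, limma adjusted p = 0.00202), followed by *Osr1* at -0.88 and *Foxf1* at -0.79. All 4 Hedgehog targets were lower, at list levels of 7.02 to 7.45 and 5.55 to 5.96, and *Hhip* was called (-2.83 by its brightest probe, limma adjusted p = 0.0012), followed by *Ptch1* at -1.17 and *Gli1* at -1.02. *Shh* itself read at 47.5% of the *Shh*+/+ level without overlap (-1.07, SE 0.20; limma adjusted p = 0.0637). The sources used here do not give which bases the allele lacks, so this probe alone does not check the labels.

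Across the arrays, 59.8% to 70.6% of probes were well above background, 155 to 206 spots were outliers and 0 spots were saturated. The median signals after normalization were 6.17 to 6.33. Pools of 1 genotype differed by a median SD of 0.17 over the probes tested. Precision is limited by there being 7 arrays.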

How the data were processed

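Each array held the RNA of pooled E9.5 pSHF tissues of 1 genotype, labelled with Cy3. The authors scanned the arrays with Agilent Feature Extraction 10.5.1.1, and the deposited scanner files give spot intensity, local background and quality flags, with probe positions on mm9 per the file headers. The authors' deposited log2 values (background corrected, VSN normalized) have array medians of 5.50 to 9.93, so they served as an alternative only. The labels' strain and genotype fields are exchanged, and genotype was read from the titles. Unmapped value columns numbered 0.

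Outlier spots were left out. Mean signals were corrected by normexp on 153 negative control spots (offset 50), then normalized by VSN (trimming share 0.9, 7 iterations, 5 strata) and put on the log2 scale, and spots of a probe were averaged. Probes entered the test when all arrays of 1 or both genotypes had them well above background. Linear models with empirical Bayes were fitted by limma 3.58.1 in R 4.3.3 over 23117 probes of 14891 genes, *Shh*-/- against *Shh*+/+, with Benjamini-Hochberg adjustment over all of them and a threshold of 0.05. The permutation tests were exact and two-sided over 35 splits. Steps were tested on simulated data. Figures were drawn with Python and matplotlib.

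The 10 genes and all lists were chosen with earlier results of these data known. Named genes were the 10 genes, *Shh*, and of each list those called or, below 3 calls, the largest changes up to 3, and the 5 genes nearest to each called gene; some named by this rule are not reported here. Same-numbered pools share a slide by their labels: deviations from the genotype means correlated at 0.192, 0.242 and 0.0319 within slides and at -0.0492 on average over the 9 other pairs. The slide was therefore run as a block. Alternatives changed the normalization, background, source of values, filter, outlier spots, variance model, test, slide or 1 array at a time. P-values measure the spread between these pools.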

Additional observations from a re-analysis of the deposited data

Results flagged for a closer look

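In groups of 4 pools, 1 *Shh*-/- pool stood far from the other 3 for 2 probes of the 21 groups examined, by a gap over the group's range above Dixon's 95% critical value. Chance sets apart about 1 in 20 such groups. For the other *Pou4f1* probe it was *Shh*-/- pool 1, at 3.85, with a gap of 0.846 of the range. For *Lmx1a* it was *Shh*-/- pool 2, at 5.77, with a gap of 0.851 of the range.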

How the results depend on the processing

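Without 1 array, the calls among the 10 genes ran from 0 (without *Shh*+/+ pool 1) to 2 (without *Shh*-/- pool 1), over all probes from 12 (without *Shh*-/- pool 3) to 132 (without *Shh*-/- pool 1), and among the other domain genes from 0 to 1, against 1, 124 and 2 as reported. The ventral median ran from -0.44 (without *Shh*+/+ pool 4) to 0.01 (without *Shh*+/+ pool 3) and the dorsal from -0.28 to -0.13. The calls among the 10 genes were 2 with quantile normalization, without background correction, with normexp on the local background, with a variance trend, by SAM and with the slide as a random block. They were 0 in the authors' values (1 at an unadjusted p under 0.05 by limma) and, in an alternative chosen after seeing the data, 0 when these were set to 1 median (2 unadjusted). All probes gave 57 calls with 75th percentile scaling, 30 without the filter, 258 by SAM, 11 with the slide as a fixed replicate block, and 0 in the authors' values before (28 unadjusted) and after (1040 unadjusted) setting 1 median. The other domain genes gave 0 calls by limma with 75th percentile scaling (6 unadjusted), without the filter (9), with the replicate block (7), and in the authors' values before (1) and after (5) setting 1 median. The block kept the call of *Skor1* (adjusted p = 0.0198, change -2.37) and changed no call among the 10 genes. In the authors' values the ventral median was -0.59, the dorsal -0.80 and the first *Pou4f1* probe -0.32, and with these set to 1 median they were 0.02, -0.19 and 0.29, with the first *Olig2* probe at 0.20. The signs of *Pou4f1* before and *Olig2* after setting 1 median were reversed, and the cause was not tested. Over all probes, calls were 15, 31 and 37 without *Shh*+/+ pools 1, 3 and 4, 64 without *Shh*-/- pool 4, and 34 without the possibly leaked *Shh*-/- pool 2, where the 10 genes gave 1. Signal over background left 5 of the 10 genes untested.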
